A study of Bos taurus with 8 samples.

Results

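T cell and cytotoxic lymphocyte genes were measured in the lungs of newborn calves. The set holds 10 genes, CD3D, CD3E, CD2, CD4, CD8A, CD8B, GZMA, GZMB, PRF1 and ZAP70, of 11054 genes named on the array. Its members are all 21 non-control probes, of 43653, whose transcript accession maps to 1 of these symbols. All 10 genes had a probe, and 16 of the 21 probes, with at least 1 for every gene, were well above background on 4 or more of the 8 arrays. The genes were chosen as a lymphocyte set, with earlier results of these data known. The study compared lungs of 4 cloned Holstein calves with respiratory failure against lungs of 4 healthy, naturally conceived Holstein calves. By the submitters' account the clones died in their first 4 days, with slaughter right after death, and the normal calves were slaughtered at 4 days, and every sample label gives the age as 4 days. The age of each clone at death and the donor cells of the clones are not given in the sources used here. Each animal gave 1 array of whole lung, so every value below is a mixture over all cell types of the tissue.

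T cells recognise antigen through a receptor that is held in the membrane and made to signal by the CD3 chains. The kinase ZAP70 binds the activated receptor complex, CD2 adds adhesion to the target cell, and CD4 or the CD8 pair steadies the contact with class II or class I molecules. Cytotoxic T cells and natural killer cells kill by releasing perforin, which opens the target membrane, together with granzymes, which are proteases. In the lung such cells sit in the airway wall, the interstitium and the capillary blood, and the lung of a newborn has met few antigens.

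Levels are log2 processed signals minus the 75th percentile of the same array, so that a level of 0 is that percentile. On this scale the median of the spike-in controls was higher on every clone array, at -1.39 to -1.01, than on any normal array, at -2.07 to -1.59. All clone arrays came from 1 slide and all arrays of normal calves from another, and slide and group cannot be told apart. The clones varied more than the normal calves in 91.0% of all genes, with median SDs of 0.53 and 0.16, and in 7 of the 10 lymphocyte genes. The surfactant genes SFTPC, SFTPB and SFTPA1 were between 4.30 and 7.94 in all 8 animals. Of 9 lung tissue genes 3 were negative, with a median of 0.04, from -1.81 for the airway gene SCGB1A1 to 1.27 for the collagen gene COL1A1, and none passed (adjusted p of 0.172 or more). The T cell genes CD3E, CD3G, CD247 and CD2 were well above background on all 8 arrays. CD5 was so in 4 clones but only 2 normal calves, and CD6 had no probe.

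None of the 16 measured lymphocyte probes passed an adjusted p of 0.05 between clones and normal calves (limma, adjusted p between 0.176 and 0.974). Of all 35636 probes 0.177% passed, so no call among 16 says little about these genes. At an unadjusted p under 0.05 there were 4 of 16, against 13.2% of all probes, and these were CD8A and CD2, lower in clones, and both probes of GZMB, higher in clones. Of all probes 7.10% were lower and 6.06% higher in clones at that p. On the brightest probe of each gene 7 of 10 genes had a negative and 3 a positive difference, with a median of -0.34 on the log2 scale. Over all 9867 genes 51.6% were negative and the median was -0.02. The median of the 10 genes was -0.05 without normal animal 2, -0.08 without clone 1 and 0.09 without both, a pair chosen after the data were seen. With the arrays centred on the spike-ins, 12 of the 16 probes were called, all lower in clones. Of all probes 30.0% were called there in either direction and 29.8% lower in clones. There the median of the 10 genes was -1.02 and that of all genes -0.70. This centring moves all genes of an array by the same amount. It therefore cannot alter how far the 10 genes lay from the other genes.

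**Figure D1:**
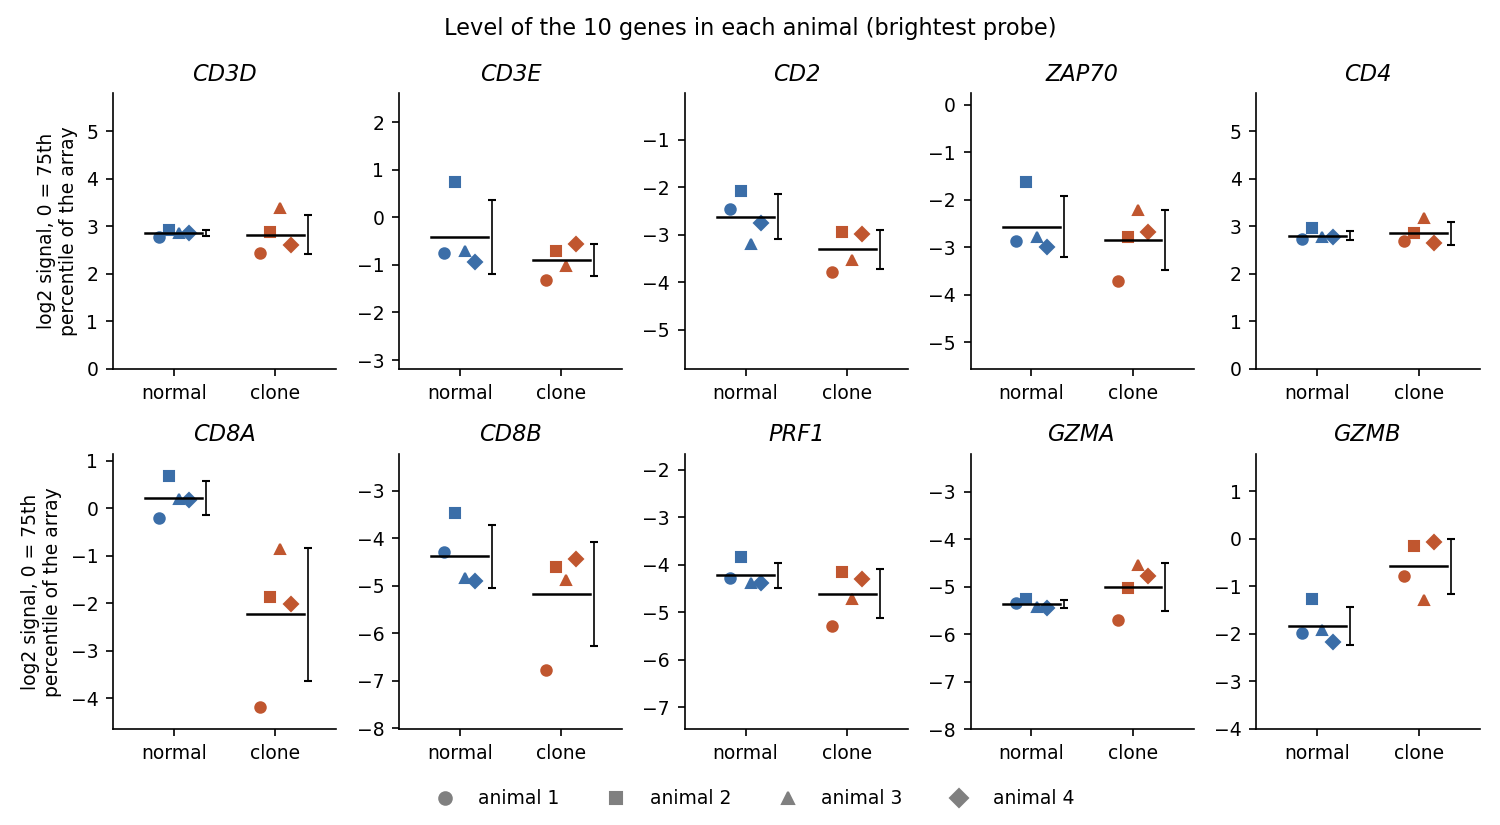
Level of each of the 10 genes in each animal on its brightest probe, as log2 processed signal relative to the 75th percentile of the array, for 4 normal calves (blue) and 4 clones (orange). Horizontal lines are group means, error bars are 1 SD (n = 4) and every panel spans the same range. CD8A is the sole gene whose groups do not overlap, and GZMB is higher in 3 of 4 clones than in every normal calf.

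CD8A, the alpha chain of the CD8 co-receptor and a marker of cytotoxic T cells, had the largest difference of the 10 genes. Its brightest probe measured -0.20, 0.68, 0.20 and 0.17 in normal calves 1 to 4 and -4.19, -1.88, -0.86 and -2.01 in clones 1 to 4. Every clone lay below every normal calf, as did 4.77% of all genes, and clone 1 was far below the other clones. Before centring the processed signals of this probe were 78.8, 359, 603 and 284 in the clones and 1659, 2460.3, 2127 and 2072 in the normal calves. The means were -2.23 ± 1.40 in clones and 0.21 ± 0.36 in normal calves (log2, SD, n = 4 each), a difference of -2.45 (SE 0.62, 95% interval -3.86 to -1.03) or 5.45-fold. It missed the threshold of 0.05 with a limma adjusted p of 0.176. Without clone 1 the difference was smaller, at -1.79, but passed (adjusted p = 0.0281), where 7.19% of all probes passed. With array weights it also passed (difference -2.18, adjusted p = 0.00193, 31.3% of all probes passing). These weights were 0.12 for clone 1 and 0.10 for clone 3, against 1.94 and 1.55 for clones 2 and 4. The clone side of that setting thus rests mostly on clones 2 and 4. Without both clone 1 and normal animal 2 the CD8A difference was -1.64 and did not pass (adjusted p = 0.0781), where 0.909% of all probes passed. In whole tissue, fewer CD8A-expressing cells and less CD8A RNA per cell cannot be told apart.

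The other CD8A probe was not well above background on any of the 8 arrays. It measured between -8.53 and -7.97 in clones and between -7.12 and -6.24 in normal calves. These values are at background, carry no usable level and were not in the main fit. Without the signal filter this probe differed by -1.43 and did not pass (limma, adjusted p = 0.0842), where 0.156% of all probes passed. CD8B, the beta chain that pairs with CD8A on conventional cytotoxic T cells and a neighbour of CD8A in the ARS-UCD2.0 annotation, was dimmer. On its brighter probe CD8B measured -6.78, -4.61, -4.88 and -4.43 in clones 1 to 4. In normal calves 1 to 4 it measured -4.30, -3.47, -4.83 and -4.91. Clones 2 to 4 lay within the range of the normal calves and clone 1 stood below, not well above background. The difference was -0.80 (SE 0.55, adjusted p = 0.591), and -0.26 without clone 1. The second CD8B probe gave -1.11 (adjusted p = 0.429), with signal well above background in 1 clone and 3 normal calves. CD8A differed from the normal mean by -2.09, -1.07 and -2.22 in clones 2, 3 and 4, while CD8B differed by -0.23, -0.50 and -0.05.

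**Figure D2:**
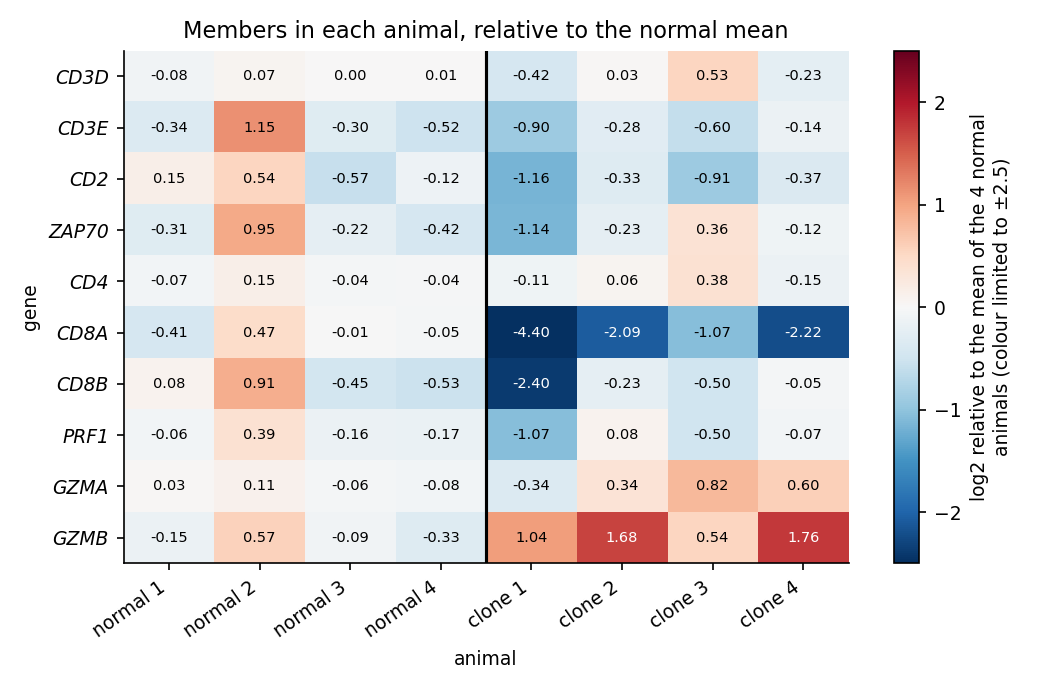
Brightest probe of each of the 10 genes (rows) in each animal (columns), as log2 difference from the mean of the 4 normal calves, with each value printed. The column of normal animal 2 is positive for all 10 genes, the column of clone 1 is negative for 9 of 10, and in all 4 clones CD8A is negative and GZMB positive.

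The CD3 chains gave no difference that exceeded the spread. CD3E, which couples the T cell receptor to its signalling machinery, measured -1.32, -0.70, -1.02 and -0.56 in clones 1 to 4. In normal calves 1 to 4 CD3E measured -0.75, 0.74, -0.71 and -0.93. The clones overlapped 3 of the normal calves, and normal animal 2 stood 1.67 above the lowest of its group. The difference was -0.48 (SE 0.38, 95% interval -1.35 to 0.38, adjusted p = 0.645), and it was -0.10 without normal animal 2. The second CD3E probe, which was dimmer, gave -0.38 (adjusted p = 0.742). ZAP70, the kinase that the activated receptor recruits, had the same pattern over the normal calves, at -2.87, -1.61, -2.78 and -2.98. Its levels in clones 1 to 4 were -3.70, -2.79, -2.20 and -2.68, so clones 2 to 4 lay close to or above the lower 3 normal calves. The difference of ZAP70 was -0.28 (SE 0.40, adjusted p = 0.815), turning to 0.03 without normal animal 2 and to 0.00497 without clone 1.

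CD2, the adhesion receptor of T and natural killer cells, had the smallest unadjusted p of the 10 genes after CD8A and GZMB. It measured -3.77, -2.94, -3.53 and -2.98 in clones 1 to 4, against -2.47, -2.08, -3.18 and -2.74 in normal calves 1 to 4. Every clone was below 3 of the 4 normal calves, and normal animal 3 lay among the clones. The difference was -0.69 (SE 0.30, 95% interval -1.36 to -0.02, unadjusted p = 0.0453, adjusted p = 0.366 by limma). It was negative in all 21 alternative settings, between -1.38 with spike-in centring and -0.34 with array weights.

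The probes named CD3D and CD4 differed from the CD3E probes in their course over the animals. CD3D, a further chain of the CD3 complex and a neighbour of CD3E in the annotation, had a bright probe (A_73_P049086) with a mean level of 2.84 and a dim one (A_73_P075101) with a mean of -4.45. The dim CD3D probe measured -4.31, -3.13, -4.39 and -4.68 in normal calves 1 to 4 and -5.00, -4.42, -4.96 and -4.70 in clones 1 to 4. Like CD3E it was highest in normal animal 2, and its profile, centred on its own mean, differed from that of the brighter CD3E probe by 0.14 on average over the 8 animals. The bright CD3D probe measured 2.77, 2.92, 2.85 and 2.86 in normal calves 1 to 4 and 2.43, 2.88, 3.38 and 2.62 in clones 1 to 4. It did not stand out in normal animal 2, was highest in clone 3, and its profile differed from that of the brighter CD3E probe by 0.41 on average.

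The profile nearest to the bright CD3D probe among the lymphocyte probes was that of CD4, the co-receptor of helper T cells, at a mean distance of 0.09. The CD4 probe (A_73_104193) measured 2.73, 2.96, 2.77 and 2.77 in normal calves 1 to 4 and 2.69, 2.87, 3.18 and 2.65 in clones 1 to 4. Its mean level over all animals, 2.83, was close to that of the bright CD3D probe. The distances are not scaled by the spread of a probe. In normal calves the SDs were 0.10 for CD4, 0.06 for the bright CD3D probe and 0.77 for the brighter CD3E probe. The other 3 CD4 probes stayed at background, except 1 of them in 1 clone. The group differences were 0.04 for CD4 (95% interval -0.36 to 0.45, adjusted p = 0.947), -0.03 for the bright CD3D probe (-0.54 to 0.49, adjusted p = 0.974) and -0.65 for the dim one (-1.42 to 0.13, adjusted p = 0.468). The sign turned with quantile normalization for CD4 (-0.07) and with median centring for the bright CD3D probe (0.00247). What these bright probes bind beyond the named transcripts was not tested.

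**Figure D3:**
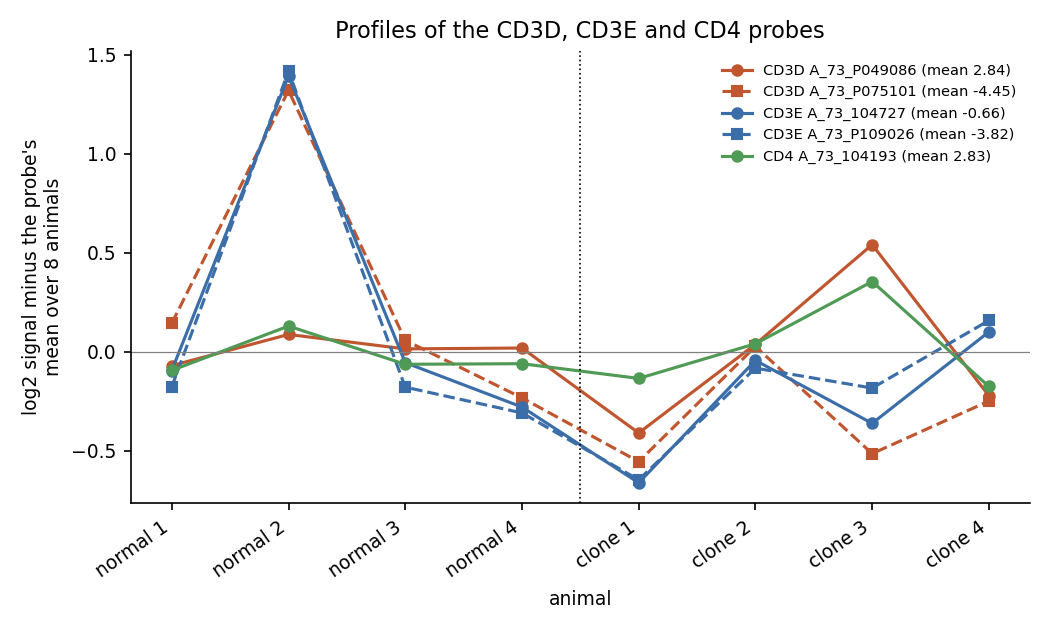
Log2 signal of the CD3D, CD3E and CD4 probes that passed the signal filter, each minus its own mean over the 8 animals, for normal calves 1 to 4 (left of the dotted line) and clones 1 to 4 (right). The dim CD3D probe and both CD3E probes peak together in normal animal 2. The bright CD3D probe and the CD4 probe rise less there, though each is highest of the normal calves, and peak in clone 3.

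Granzyme B was the sole member with higher levels in every clone than the normal mean and an unadjusted p under 0.05. GZMB, the serine protease that triggers death of the target cell, measured -0.79, -0.15, -1.29 and -0.07 in clones 1 to 4. In normal calves 1 to 4 GZMB measured -1.98, -1.26, -1.92 and -2.16. Clones 1, 2 and 4 lay above every normal calf and clone 3 lay next to normal animal 2. The means were -0.58 ± 0.58 and -1.83 ± 0.40 (log2, SD, n = 4 each), a difference of 1.25 (SE 0.32, 95% interval 0.51 to 1.99) or 2.39-fold, with a limma adjusted p of 0.180. The second GZMB probe gave 1.41 (SE 0.37, adjusted p = 0.183) with the same order of animals within the clones. Without clone 3 the second probe gave 1.73 and passed (adjusted p = 0.0460, 1.27% of all probes passing), while the first did not. With array weights, which counted clones 1 and 3 little, both GZMB probes passed, at 1.75 and 1.97 (adjusted p = 0.00290 and 0.00266), as did 31.3% of all probes. With spike-in centring the first gave 0.57 and did not pass.

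GZMA, a granzyme with another cleavage specificity, was close to the lower end of detection. Its brighter probe measured -5.70, -5.02, -4.54 and -4.77 in clones 1 to 4 and between -5.44 and -5.26 in normal calves, so clones 2, 3 and 4 were above and clone 1 below every normal calf. The difference was 0.35 (SE 0.25, adjusted p = 0.609). With array weights, low for clones 1 and 3, it was 0.46 and passed (adjusted p = 0.0250), as did 31.3% of all probes. It changed sign with spike-in centring (-0.33) and with normexp background correction and 75th percentile centring (-0.66). The second GZMA probe stayed at background on all 8 arrays. PRF1, perforin, had 3 probes with differences of -0.39, -0.79 and -0.13 (adjusted p between 0.608 and 0.855). On the brightest, clones 1 to 4 measured -5.29, -4.14, -4.72 and -4.29 and normal calves 1 to 4 measured -4.28, -3.84, -4.38 and -4.39, with clone 1 lowest. Without clone 1 the 3 PRF1 probes differed by -0.16, -0.21 and -0.04.

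**Figure D4:**
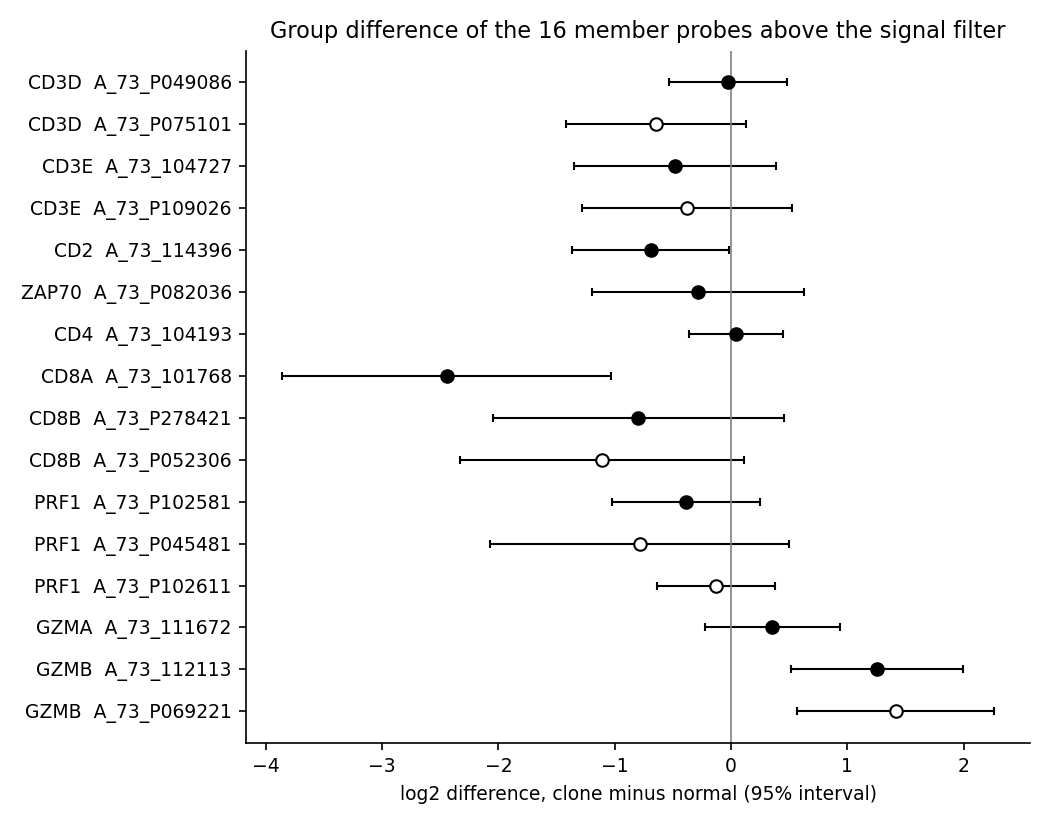
Log2 difference between clones and normal calves for the 16 lymphocyte probes that passed the signal filter, with 95% intervals from limma (n = 4 each). Filled points are the brightest probe of a gene and open points its other probes. The intervals of CD8A, CD2 and both GZMB probes do not include 0, and none of the 16 passed after adjustment over all probes.

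The same animals stood out across most members. Normal animal 2 was the highest normal calf for 10 of 10 genes and for all 16 probes, against 30.9% of all genes, by a median of 0.67 over the other normal calves. Clone 1 was the lowest clone for 8 of 10 genes, against 31.3% of all genes, by a median of 0.77 below the other clones. Among other cell types, normal animal 2 was also the highest normal calf for 6 of 7 pan-leukocyte and 6 of 7 macrophage genes, but for 2 of 10 neutrophil genes. Clone 1 was the highest clone in the summed level of the pan-leukocyte, neutrophil, B cell, dendritic cell, lymph node, erythroid, platelet and lung tissue lists. The brightest genes dominate such sums. In clone 1 JCHAIN was at 2.85 in a B cell sum of 3.23, and LAMP3 at 3.86 in a dendritic cell sum of 4.13. Gene by gene, the median of clone 1 against the other clones was 0.16 to 2.85 in these lists, but -0.25 in the platelet list. Clone 1 was also highest in the summed level of the cytotoxic and natural killer genes, with GNLY at 5.34 in clone 1. Gene by gene, clone 1 was the lowest clone for 8 of these 17 genes, with a median of -0.26 against the other clones.

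Other genes of the same cells, from 3 lists, showed no call. Of 85 listed genes 65 had a probe and 53 were measured. None of the 53 passed by limma, where 0.182% of all genes did, and 8 had an unadjusted p under 0.05, against 13.0% of all genes. Of the 8, 5 were lower and 3 higher in clones, against 6.58% and 6.37% of all genes. Without overlap of the groups, 3 of the 53 were lower and 1 higher in clones, against 4.77% and 5.05% of all genes. Of the 53, 37 had a negative difference and the median was -0.33. Normal animal 2 was the highest normal calf for 41 of the 53.

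Among 13 genes of the T cell receptor complex and its signalling, 9 were negative with a median of -0.28. The median was -0.11 without clone 1, -0.08 without normal animal 2 and 0.17 without both. The CD3 chain CD3G differed by -0.47 (adjusted p = 0.647) and the zeta chain CD247 by -0.33 (adjusted p = 0.623), with normal animal 2 highest in both. The kinase LCK, which phosphorylates the CD3 chains, differed by -0.12. The smallest p-values were those of the adaptor LAT at 0.96, the kinase FYN at 0.73, the adaptor LCP2 at -0.51 and the surface receptor CD5 at 0.84 (adjusted p between 0.326 and 0.517). LAT was the 1 gene of the 13 in which normal animal 2 was not the highest normal calf, and there, at 0.51, it was the lowest of all 8 animals. Without normal animal 2 LAT differed by 0.58, and without clone 3 CD5 differed by 0.43. Without clone 1 FYN passed, at 1.02 (adjusted p = 0.0186), where 7.19% of all probes passed.

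Among 17 genes of cytotoxic granules, natural killer receptors and effectors, 15 were negative with a median of -0.60. The median was -0.36 without clone 1, -0.36 without normal animal 2 and -0.11 without both. The receptors CRTAM, CD244 and KLRK1 differed by -0.80, -1.05 and -1.02 (adjusted p = 0.325, 0.361 and 0.415). Without normal animal 2 CRTAM differed by -0.53 and KLRK1 by -0.64, and without clone 3 CD244 differed by -0.59. The granule protein GNLY, granulysin, differed by -2.05 (SE 1.09, adjusted p = 0.472). GNLY measured 5.34 in clone 1 and 1.24, -0.60 and 1.89 in clones 2, 3 and 4, against 3.43 to 5.01 in normal calves, so clone 1 was above every normal calf and the other clones below. Without clone 1 GNLY differed by -3.18 and passed (adjusted p = 0.0335), as did 7.19% of all probes, and without clone 3 it differed by -1.20 (adjusted p = 0.548). TBX21, the transcription factor of cytotoxic programmes, differed by -0.26 with every clone below every normal calf, as in 4.77% of all genes. It is named for that after its values were seen. IFNG, EOMES and KLRJ1 were too dim to be measured.

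Among 23 genes of T cell subsets, costimulation and homing, 13 were negative with a median of -0.15. The median was 0.03 without clone 1, -0.03 without normal animal 2, -0.24 without clone 3 and 0.00539 without clone 1 and normal animal 2. PDCD1, the inhibitory receptor PD-1 of activated T cells, measured 0.98, 1.59, 0.89 and 1.41 in clones 1 to 4. In normal calves 1 to 4 it measured 0.02, 0.05, -0.05 and 0.22, so every clone was above every normal calf, as in 5.05% of all genes. The difference was 1.16 (SE 0.20, adjusted p = 0.0907), and it passed without clone 1 (1.24, adjusted p = 0.0211) and without clone 3 (1.27, adjusted p = 0.0341), settings in which 7.19% and 1.27% of all probes passed. Without normal animal 2 PDCD1 differed by 1.16 (adjusted p = 0.299). CD163L1, a scavenger receptor of the family that holds the WC1 receptors of bovine gamma delta T cells, differed by -1.29 without overlap (adjusted p = 0.220). The surface protein CD7 differed by -1.27, also without overlap (adjusted p = 0.412), and by -0.69 without normal animal 2. The clones lay wholly below the normal calves in 4.77% of all genes.

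**Figure D5:**
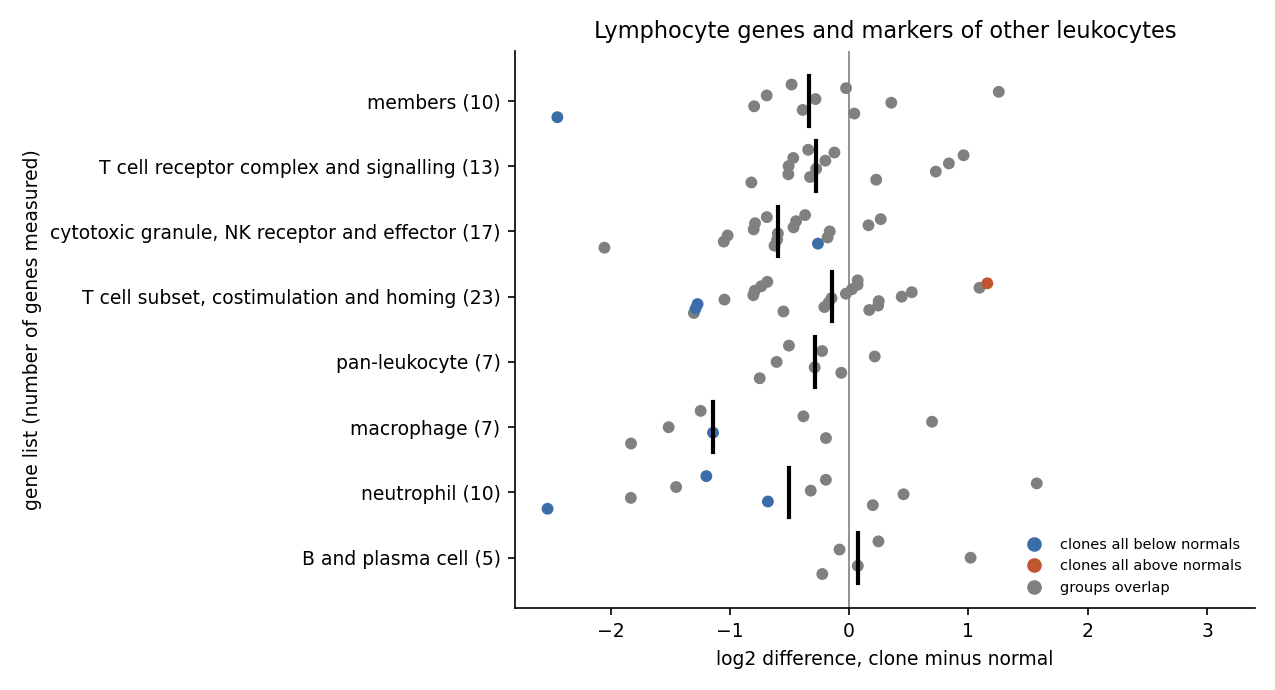
Log2 difference between clones and normal calves for the measured genes of the lymphocyte lists and of 4 marker lists of other leukocytes, 1 point a gene on its brightest probe. Black bars are list medians and colours mark genes whose groups do not overlap. The median is -0.34 for the 10 members (top row), and those of all 8 lists lie between -1.14 for macrophages and 0.07 for B and plasma cells.

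The genes whose profile over the 8 animals was nearest to that of CD3E among 9723 genes were CD3G, SH2D2A, CD247, LCK and CTSW, at mean absolute distances of 0.11 to 0.20. ZAP70 ranked 8, PRF1 18 and CD2 39 in that order. The profile of CD8A had its nearest genes at larger distances of 0.34 to 0.53, ANGPTL7, UCP3, CFD, TTC36 and C1QB, the last a complement chain of macrophages. The mean absolute deviation of the profile itself was also larger for CD8A, at 1.26, than for CD3E, at 0.37. CD8B ranked 219 for CD8A and CD3E ranked 1171. The profile of GZMB was nearest to EID2, PIK3R2, H4C16, PROX1 and GNPDA1, at 0.19 to 0.26, with GZMA at rank 2097 and PRF1 at rank 6224. These distances describe 8 animals that share 2 slides, with no test.

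Markers of other cells are given beside these values. Of 7 pan-leukocyte genes 6 were negative with a median of -0.29, and their summed level was 5.06 to 5.83 in clones and 5.37 to 5.68 in normal calves. Of 7 macrophage genes 6 were negative with a median of -1.14, and their summed level was 5.997 to 7.79 in clones and 7.44 to 8.05 in normal calves. Of 10 neutrophil genes 7 were negative with a median of -0.50, and their summed level was 4.07 to 6.89 in clones and 5.01 to 5.60 in normal calves. Of 5 B and plasma cell genes 2 were negative, with summed levels of 0.40 to 3.23 and 0.75 to 1.55. All 3 measured genes of a thymus list were negative, though small, from -0.37 to -0.03. Their summed levels were -2.73 to -1.92 in clones and -2.58 to -1.73 in normal calves. RAG2 and DNTT were too dim to be measured. Both measured genes of lymph node stroma were positive, with summed levels of 0.14 to 2.83 and 0.57 to 1.27. The 6 erythroid genes were positive and 2 of 3 platelet genes negative, and 2 of 5 dendritic cell genes were negative, CD209 at -2.71 without overlap. The macrophage gene CD68 at -1.14 and the neutrophil genes CXCR2 at -0.68, ELANE at -1.20 and CATHL5 at -2.53 were also without overlap. Of all genes 4.77% were lower in clones without overlap. No marker of these lists passed (adjusted p of 0.132 or more). The part of these cells in the lymphocyte values was not tested.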

How the data were processed

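Lung RNA of 8 calves was labelled with Cy3 and measured on 1-colour Agilent bovine arrays. Per the file headers, the intensity used is the processed signal of Agilent Feature Extraction, which subtracts and detrends the background of each array alone. The submitters' processing notes name version 10.7. The authors' deposited value table holds 1 log2 value per probe and served as an alternative. Its columns share a median of 7.89, and no source used here names the step that made them alike. Samples were grouped by their titles.

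Control spots and 2 to 21 outlier spots per array were left out, and no spot was saturated. Log2 intensity was centred on the 75th percentile of each array, and a probe was kept when well above background on at least 4 of 8 arrays. Probe accessions were named through RefSeq genes of ARS-UCD2.0. The array design names Btau_3.1, so no coordinates are given. For a gene with several kept probes the brightest on average stood for it. Groups were compared by limma 3.58.1 in R 4.3.3, 2-sided, adjusted by Benjamini-Hochberg over all kept probes, with a threshold of 0.05. The summed level of a list is the log2 of the sum of its linear levels. The fit was tested on simulated data. The number of arrays, 4 a group, limits the precision.

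Alternatives were quantile normalization, median and spike-in centring, normexp with an offset of 50 on median spot signals (a mean signal was not used here), other filters, the value table, trend and robust settings, array weights, a replicate block, all probes of a gene averaged, and each animal left out. The members and lists were chosen with earlier results of these data known. Named genes were all members, up to 4 genes of each wider list with the smallest p and the 5 nearest profiles of CD3E, CD8A and GZMB. One gene that this rule names is not reported here. Genes of marker lists are named where a range or a group separation needs it.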

Additional observations from a re-analysis of the deposited data

Results flagged for a closer look

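In 3 of the 20 groups of 4 values examined, 2 for each of the 10 genes, 1 animal lay far from the other 3 of its group, and all 3 concern normal animal 2. It measured 0.74 for CD3E, 2.96 for CD4 and -1.61 for ZAP70, in each the highest of the normal calves. Chance alone flags about 1 in 20 such groups, and the 10 genes share the same animals, so the 3 are not independent. The gap to the nearest normal calf, divided by the range of the group, was 0.866 for CD3E, 0.848 for CD4 and 0.850 for ZAP70.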

How the results depend on the processing

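Of the 10 genes, CD8A and CD2 kept a negative and GZMB a positive difference in all 21 alternatives run for each. The number of probes called depended on the setting. Over all probes it was 63, and became 10692 with spike-in centring, 0 with normexp and 75th percentile centring (2278 at an unadjusted p under 0.05), 17 with a filter on all 8 arrays, 25 with quantile normalization after normexp, 146 with trend and robust settings, 11147 with array weights, and 17 to 2562 with 1 animal left out. Among the lymphocyte probes it was 0, and became 12 with spike-in centring, 4 with array weights (CD8A, GZMA and both of GZMB) and 0 to 1 with 1 animal left out. Among the wider lists it was 0, and became 19, 13 and 0 to 3 in the same settings. The median over the 10 genes was -0.34, and -1.02 with spike-in centring, -0.58 with normexp and 75th percentile centring, -0.14 with quantile normalization after normexp, -0.0862 with array weights and -0.43 to -0.05 with 1 animal left out. Leaving out clone 1 and normal animal 2 together, chosen after seeing the data, gave 324 calls over all probes and a median of 0.0862. The median of all genes moved to -0.70 with spike-in centring and to -0.12 with normexp and 75th percentile centring.

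Signs turned for small differences. CD4 became -0.0692 with quantile normalization, -0.0688 with the authors' value table, -0.64 with spike-in centring, -0.106 with quantile normalization after normexp and -0.0148 with array weights. CD3D became 0.00247 with median centring and 0.0856 with normexp and 75th percentile centring. GZMA became -0.33 with spike-in centring and -0.66 with normexp and 75th percentile centring, and PRF1 0.0107 with array weights. With animals left out, singly or as the pair above, CD4 ranged from -0.0678 to 0.146, CD3D from -0.211 to 0.131, CD3E from -0.656 to 0.0414, CD8B from -1.04 to 0.0408, ZAP70 from -0.496 to 0.320, PRF1 from -0.545 to -0.0337 and GZMA from 0.198 to 0.619. The cause was not tested. CD8B did not pass the filter on all 8 arrays.

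Clones and normal calves share only replicate numbers. The deviations of same-numbered animals correlated at 0.09, 0.10, -0.20 and -0.10, and those of differently numbered animals at -0.18 to 0.17. With 4 animals a group these values cannot decide whether the numbers pair animals. With the replicate block 13 probes were called in all, and none of the lymphocyte probes.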
